A study of Mus musculus with 16 samples.

Results

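Expression of 10 inflammasome and interleukin-1 (IL-1) family genes was described across 2 macrophage subsets of mouse lymph nodes that did or did not drain a tumor. The genes were taken by name: the sensors Nlrp3 and Aim2, the adaptor Pycard, the caspases Casp1 and Casp4, the pore-forming protein Gsdmd, the cytokines Il1a, Il1b and Il18, and the receptor antagonist Il1rn. They were 10 of the 55421 genes in the count matrix, and all 10 had enough reads to be tested.

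Subcapsular sinus macrophages (SSMs) and medullary sinus macrophages (MSMs) line the lymph sinuses and meet antigen that drains from the tissue. Male C57B/6 mice carried MOC2, a squamous cell carcinoma line, implanted intradermally in the flank, and their nodes were collected after 2 weeks. Both subsets were sorted as live CD45+ CD11b+ CD169+ cells without CD3, B220 or Ly6G, and CD11c separated the SSMs (CD11c-) from the MSMs (CD11c+). The 4 groups were SSMs and MSMs from the tumor-draining lymph node (tdLN) and SSMs and MSMs from non-draining lymph nodes (ndLN: contralateral inguinal, axillary and brachial), with 2 libraries per group, numbered pool 1 and pool 2. Each pool joined the nodes of 2 mice (2 tdLN or 6 ndLN), about 10000 cells were recovered per group, and no node came from a mouse without a tumor, so the ndLN samples are nodes of tumor-bearing mice.

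An inflammasome is a protein platform that forms inside a myeloid cell when a sensor detects damage or infection. NLRP3 responds to many kinds of cell stress and AIM2 to DNA in the cytosol, and both recruit caspase-1 through ASC, the product of Pycard. Caspase-1 cleaves pro-IL-1β and pro-IL-18 into their active forms and frees the pore-forming end of gasdermin D, whereas caspase-4 (also called caspase-11 in mice) binds bacterial lipopolysaccharide in the cytosol and cleaves gasdermin D itself. IL-1α acts on the same receptor as IL-1β, and the product of Il1rn occupies that receptor without signalling. Much of this pathway is regulated by protein cleavage, which read counts do not measure.

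The libraries held 42972328 to 48130352 reads on genes, so that 3 reads corresponded to 0.0623 to 0.0698 CPM (the reads of a gene scaled to a common library size), and the CPM of genes below were further scaled by the trimmed mean of M-values (TMM). The sorted populations were checked against their markers before the 10 genes were examined. Siglec1, which encodes the sort marker CD169, was at 8.47 to 70.04 CPM in the SSM libraries but only at 0.795 to 5.96 CPM in the MSM libraries. Of 10 sinus macrophage markers, 3 were higher in SSMs of the ndLN at an adjusted p under 0.01 (edgeR quasi-likelihood test): Siglec1, Csf1r and Itgam. Another 3 were lower there, Cd68, Mertk and Timd4. In the tdLN 4 were higher and none lower. Of all tested genes, 6.01% were higher and 6.06% lower in the ndLN, and 5.16% and 3.52% in the tdLN. Xcr1 and Flt3, which mark dendritic cells, were at 630.4 to 752.4 and 672.1 to 851.6 CPM in the MSM libraries and at 14.2 to 33.6 and 27.9 to 59.3 CPM in the SSM libraries. The MSM label is therefore used below for the CD11c+ gate, whose RNA was rich in dendritic cell transcripts. The SSM libraries carried NK cell transcripts (10 genes summing to 2003 to 3354 CPM, against 47.8 to 149 CPM in MSMs) and T cell transcripts (11 genes, 1018 to 2535 CPM, against 492 to 824 CPM). Most of the T cell sum in MSMs was Cd8a, the only gene of that list with a higher mean in MSMs. Cd8a was at 357 to 605 CPM in MSMs and 10.0 to 25.75 CPM in SSMs. Cd3e was at 2.13 to 16.3 CPM in MSMs and 75.0 to 151 CPM in SSMs. In bulk samples of this kind, fewer cells of a type and less RNA per cell cannot be told apart.

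Il1b was by far the most abundant of the 10 genes in each group. Per kilobase of exon, its mean level was 810 ± 322 CPM per kb (SD, n = 2 in every group) in SSMs of the ndLN, 3299 ± 418 in SSMs of the tdLN, 1786 ± 145 in MSMs of the ndLN and 2016 ± 21.2 in MSMs of the tdLN. Ranked by CPM, Il1b stood between the 7th and the 70th place among all genes in the 8 libraries. Il1rn came next in SSMs, at 55.9 and 177 CPM per kb in ndLN and tdLN (in ndLN not beyond its SD of 17.05 from Gsdmd at 46.95), and Gsdmd came next in MSMs, at 63.9 and 80.1 CPM per kb. The lowest was Pycard in SSMs of the ndLN (6.41 CPM per kb), Aim2 in SSMs of the tdLN (10.8 CPM per kb), Casp4 in MSMs of the ndLN (3.86 CPM per kb) and Il1a in MSMs of the tdLN (4.17 CPM per kb). The plot of CPM by library shows the 4 groups side by side for each gene.

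**Figure D1:**
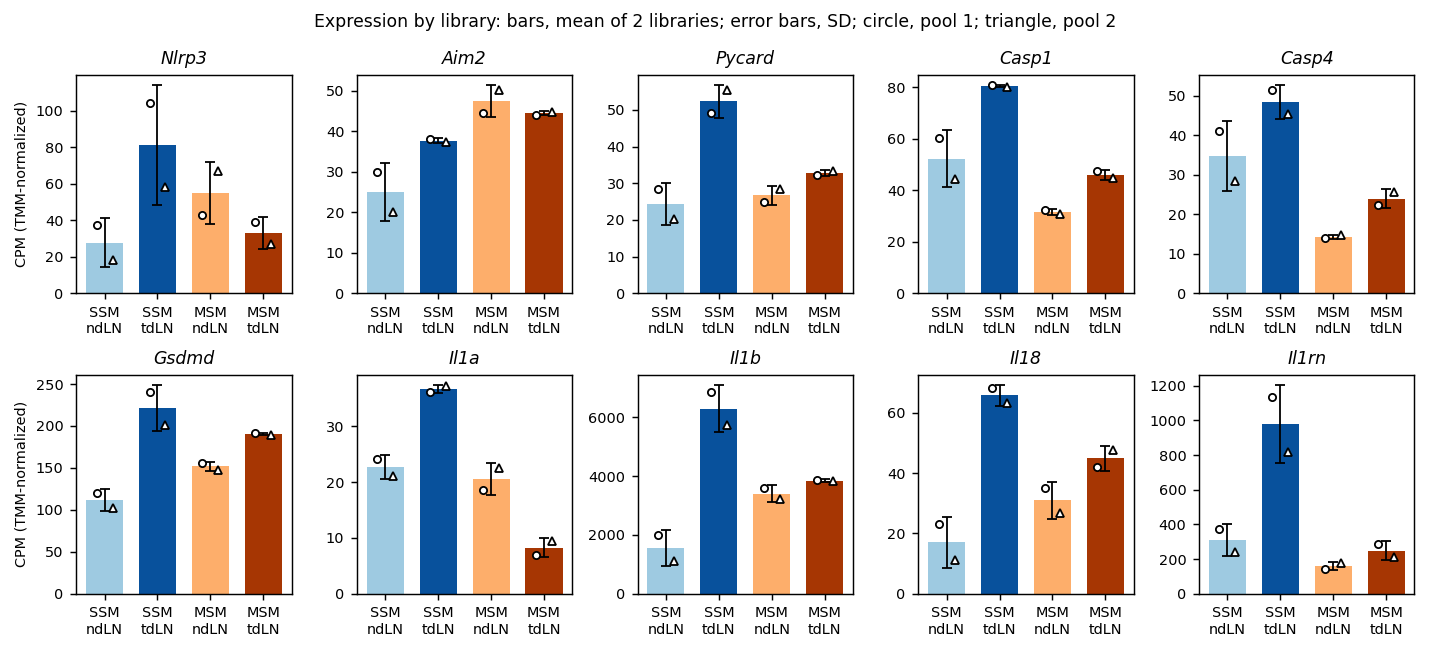
CPM of the 10 genes (vertical axes, linear from 0) in the 4 groups: bars are means of 2 libraries, error bars are SDs, circles are pool 1 and triangles pool 2. In SSMs both tdLN libraries stand above both ndLN libraries for all 10 genes, whereas Nlrp3 and Il1a are lower in tdLN than in ndLN in MSMs.

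The genes do not lie together, except for 2 pairs of neighbors. In GRCm38, Casp1 (chromosome 9, 5298517 to 5307265, plus strand) is followed by Casp4 (9, 5308828 to 5336783, plus strand), and Il1a (chromosome 2, 129299610 to 129309972, minus strand) lies beside Il1b (2, 129364570 to 129371139, minus strand). Il1rn lies elsewhere on chromosome 2 (24336853 to 24351494, plus strand) and Il18 elsewhere on chromosome 9 (50554827 to 50581840, plus strand). Nlrp3 is on chromosome 11 (59541568 to 59566956, plus strand), Aim2 on chromosome 1 (173350879 to 173466040, plus strand), Pycard on chromosome 7 (127989708 to 127993867, minus strand) and Gsdmd on chromosome 15 (75862327 to 75867408, plus strand). Exons of Pycard, Il1a and Il1b overlap exons of genes on the opposite strand (by 485, 222 and 25 bases), and since the strand setting of the counting was not stated, reads there cannot be assigned to one gene for sure.

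The 250 bases before the annotated start of Il1a, Il1b and Il1rn are printed because these 3 genes act on 1 receptor yet differed in their pattern over the groups, Il1a and Il1b being neighbors. The sequences are RefSeq's, from GRCm38.p6, on the strand of the gene and 5′ to 3′. Capitals mark matches, on either strand, to the letters of 3 motifs: the TATA box (TATAAA), AP-1 (TGANTCA) and C/EBP (TTNNGNAA).
Il1a, chr2:129309973-129310222, minus strand: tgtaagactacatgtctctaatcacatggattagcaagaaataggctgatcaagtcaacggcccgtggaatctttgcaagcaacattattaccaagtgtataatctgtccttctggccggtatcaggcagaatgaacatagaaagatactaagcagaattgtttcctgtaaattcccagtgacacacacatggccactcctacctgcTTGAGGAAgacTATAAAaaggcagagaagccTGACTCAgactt
Il1b, chr2:129371140-129371389, minus strand: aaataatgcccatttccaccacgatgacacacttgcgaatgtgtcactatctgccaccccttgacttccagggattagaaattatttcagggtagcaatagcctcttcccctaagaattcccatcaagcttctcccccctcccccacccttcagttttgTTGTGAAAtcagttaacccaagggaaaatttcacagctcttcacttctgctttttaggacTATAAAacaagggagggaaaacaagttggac
Il1rn, chr2:24336610-24336859, plus strand: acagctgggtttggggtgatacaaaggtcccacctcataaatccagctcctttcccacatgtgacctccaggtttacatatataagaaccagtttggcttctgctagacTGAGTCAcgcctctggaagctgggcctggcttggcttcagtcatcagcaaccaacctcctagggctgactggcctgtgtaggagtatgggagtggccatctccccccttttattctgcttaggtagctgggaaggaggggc
Il1a and Il1b each held a TATA box, beginning 32 and 31 bases before the start, and a C/EBP match (43 and 91 bases before it). An AP-1 match began 12 bases before the start of Il1a and 141 bases before that of Il1rn, and none was in the window of Il1b. Among 32851 RefSeq windows of the same length, 12.4% held the TATA box letters, 6.75% the AP-1 letters and 36.8% the C/EBP letters, so that the matches describe the windows and identify no binding. Il1rn has further annotated starts, which counts per gene cannot separate, and their windows held other matches. In the window from 24345041 a C/EBP match began 81 bases before the start. In that from 24345121, C/EBP matches began 161, 65 and 64 bases before it. Neither of these windows held an AP-1 match.

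The question of each comparison was which of the 10 genes differed between the subsets within a node, or between the nodes within a subset. A gene was called at an adjusted p under 0.01 (edgeR quasi-likelihood test, Benjamini-Hochberg over 21085 genes) and a mean normalized count over 100, and calls below are edgeR's unless DESeq2 is named. All 10 genes had such a mean, and shares called over all tested genes are lower than those over genes with such a mean. The 4 comparisons share libraries, so their results are not independent of each other. Between tdLN and ndLN in SSMs, 4 of the 10 genes were called, all higher in tdLN (Gsdmd, Il1b, Il18 and Il1rn), where 3.04% of all tested genes were called (1.99% higher), and 6.41% of the 9988 with a mean count over 100. Between tdLN and ndLN in MSMs none was called by edgeR (background 0.0237%), while 5 had an unadjusted p under 0.05 (11.9% of all tested genes did) and DESeq2 called 1, Il1a (2.39% of all). In SSMs DESeq2 called 6 (9.36% of all), adding Nlrp3 and Pycard.

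Between the subsets, 2 of 10 genes were called in each node. In ndLN these were Casp4, higher in SSMs, and Il1b, lower in SSMs (background 12.1%, of which 6.01% higher and 6.06% lower in SSMs, and 25.5% of genes with a mean count over 100). In tdLN they were Il1a and Il1rn, both higher in SSMs (background 8.69%, of which 5.16% higher in SSMs, and 18.3%). The shares called between subsets were thus close to the background of all genes. DESeq2 called 5 genes in ndLN (17.5% of all tested genes), adding Aim2, Casp1 and Il1rn, and 6 in tdLN (14.4%), adding Casp1, Casp4, Il1b and Nlrp3. Of the 9988 genes with a mean count over 100, DESeq2 called 3691 in ndLN and 3027 in tdLN. With both nodes in one fit, Casp1, Casp4 and Il1rn were called higher in SSMs (3 of 10, background 12.5%, of which 6.45% higher). Of genes with a mean count over 100, 26.4% were called in this fit, close to the share of the 10. With both subsets in one fit, none of the 10 was called between nodes by edgeR (background 0.223%), with 7 at an unadjusted p under 0.05 (20.2% of all) and 4 called by DESeq2 (4.53%). The median log2 fold change of the 10 genes between tdLN and ndLN was 1.04 in SSMs and 0.31 in MSMs, whereas the medians over genes with a mean count over 100 were 0.05 and 0.01.

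**Figure D2:**
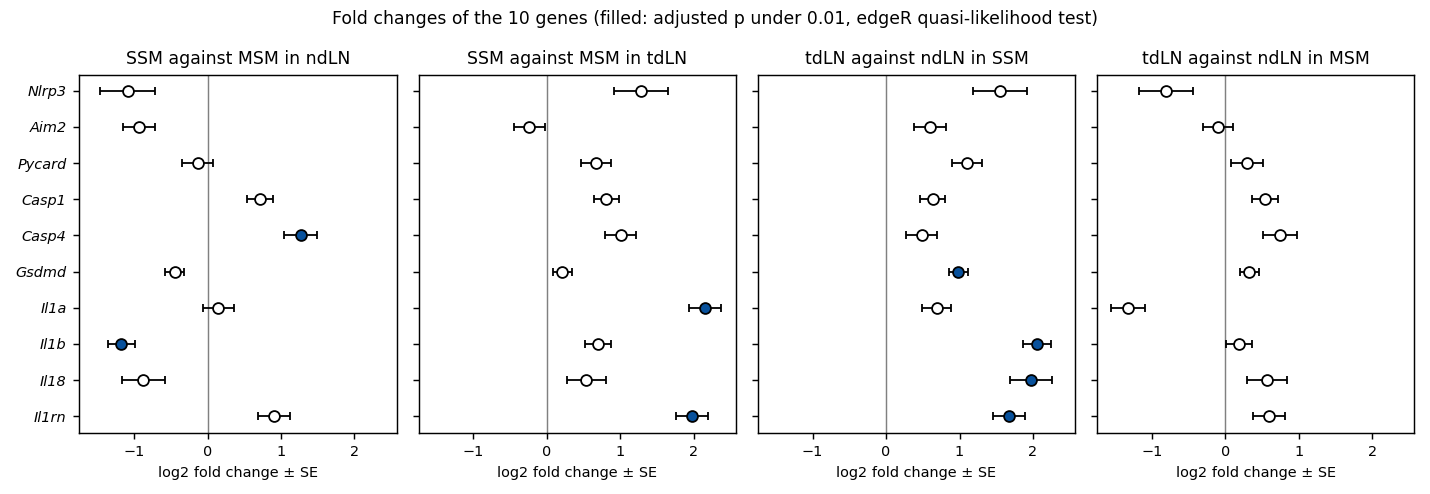
Log2 fold changes with their SE (horizontal axes) of the 10 genes in the 4 comparisons, positive where the first group named is higher. Filled points passed an adjusted p under 0.01: Casp4 and Il1b in ndLN, Il1a and Il1rn in tdLN, and Gsdmd, Il1b, Il18 and Il1rn between nodes in SSMs.

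Of the sensors, Nlrp3 differed most between libraries. Its CPM were 37.1 and 18.4 in SSMs of the ndLN, 104 and 58.2 in SSMs of the tdLN, 42.8 and 66.9 in MSMs of the ndLN and 39.1 and 26.95 in MSMs of the tdLN (pools 1 and 2 in each pair). Both SSM libraries of the tdLN lay above both of the ndLN, and both MSM libraries of the tdLN lay below both of the ndLN. None of these differences was called by edgeR: the log2 fold change between tdLN and ndLN was 1.55 ± 0.37 (SE, adjusted p = 0.041) in SSMs and -0.81 ± 0.37 (0.446) in MSMs, and between SSMs and MSMs it was -1.08 ± 0.37 (0.0775) in ndLN and 1.28 ± 0.37 (0.0537) in tdLN. DESeq2 called the difference between nodes in SSMs (adjusted p = 0.000718) and that between subsets in tdLN (0.00309), and the latter also passed in edgeR with only the groups compared (0.00515). Without pool 2 of the MSMs of the ndLN, the difference between nodes in MSMs was 0.00405.

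Aim2 showed little spread in either node of the MSMs. Its CPM were 30.01 and 19.97 in SSMs of the ndLN, 38.1 and 37.3 in SSMs of the tdLN, 44.6 and 50.3 in MSMs of the ndLN, and 44.1 and 44.8 in MSMs of the tdLN. Every MSM library stood above every SSM library, but neither comparison was called by edgeR (log2 fold change of SSMs against MSMs -0.93 ± 0.21 in ndLN, adjusted p = 0.0169, and -0.24 ± 0.21 in tdLN, adjusted p = 0.534). The difference in ndLN was called by DESeq2 (0.00123) and with a filter at 1 CPM (0.00798). The MSM libraries of the 2 nodes overlapped.

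The adaptor Pycard was at 28.4 and 20.4 CPM in SSMs of the ndLN and at 49.1 and 55.5 CPM in SSMs of the tdLN. In MSMs it was at 24.9 and 28.6 CPM in the ndLN and at 32.3 and 33.4 CPM in the tdLN. The tdLN libraries of the SSMs were the highest of the 8, and the ndLN libraries of both subsets overlapped. The log2 fold change between nodes in SSMs, 1.10 ± 0.21, missed the threshold (adjusted p = 0.0188) and passed it when pool was left out of the fit (5 genes called in place of 4).

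For both caspases, the SSM and MSM libraries did not overlap within either node. This was common: of genes above the mean count needed for a call, 72.5% did not overlap between subsets in the ndLN and 72.2% in the tdLN. Casp4 was at 41.1 and 28.4 CPM in SSMs against 14.0 and 14.7 CPM in MSMs of the ndLN, and at 51.5 and 45.4 CPM against 22.2 and 25.8 CPM in the tdLN. Each SSM library therefore exceeded each MSM library. Casp4 was higher in SSMs by a log2 fold change of 1.27 ± 0.23 in ndLN (adjusted p = 0.0057), and the value in tdLN was 1.00 ± 0.22 (adjusted p = 0.0172). Over both nodes it was 1.13 ± 0.16 (adjusted p = 0.00151) and remained called whichever of the 8 libraries was left out (adjusted p 0.00281 to 0.00923). The call in ndLN alone held only without pool 2 of those SSMs and was lost on leaving out any other library (adjusted p up to 0.0599).

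Casp1 followed the same order as its neighbor Casp4. Its CPM were 60.1 and 44.4 in SSMs against 32.5 and 30.9 in MSMs of the ndLN, and 80.8 and 80.2 against 47.4 and 44.7 in the tdLN, so that the lowest SSM library of the tdLN stood well above the highest MSM library. The log2 fold changes of SSMs against MSMs, 0.71 ± 0.17 in ndLN and 0.81 ± 0.17 in tdLN, missed the threshold (adjusted p = 0.0208 and 0.0149), whereas the value over both nodes, 0.76 ± 0.13, passed it (0.00313). That call was lost without pool 1 of either ndLN group, pool 2 of the SSMs of the tdLN, or either MSM library of the tdLN (adjusted p up to 0.0182). Between nodes, Casp1 and Casp4 had log2 fold changes of 0.63 and 0.48 in SSMs and 0.54 and 0.75 in MSMs, none of them called.

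Gsdmd, the pore-forming effector, was at 121 and 103 CPM in SSMs of the ndLN and at 240 and 202 CPM in SSMs of the tdLN. In MSMs its CPM were 156 and 148 in the ndLN and 191 and 189 in the tdLN. The SSM libraries thus held the lowest and the highest values, with the MSM libraries between them. Gsdmd rose in SSMs of the tdLN by a log2 fold change of 0.99 ± 0.13 (adjusted p = 0.00543), with 1.00 in pool 1 and 0.97 in pool 2. The call was lost without any 1 of the 8 libraries (adjusted p up to 0.106). In MSMs the value was 0.33 ± 0.13 (adjusted p = 0.382).

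Among the cytokines, Il1b and Il18 rose between nodes in SSMs. The CPM of Il1b were 1980 and 1111 in SSMs of the ndLN, 6856 and 5728 in SSMs of the tdLN, 3602 and 3210 in MSMs of the ndLN and 3874 and 3816 in MSMs of the tdLN. Both ndLN libraries of the SSMs lay below all others, and both tdLN libraries of the SSMs above all others. Il1b rose 4.16-fold in SSMs of the tdLN (log2 2.06 ± 0.19, adjusted p = 0.00192), with log2 differences of 1.79 in pool 1 and 2.37 in pool 2, and the call was lost without either SSM library of the tdLN (adjusted p up to 0.0426). In MSMs the same contrast gave 0.18 ± 0.18 (adjusted p = 0.742).

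Between subsets, Il1b was lower in SSMs than in MSMs of the ndLN (log2 -1.18 ± 0.18, adjusted p = 0.00298). This call was lost without either MSM library of the ndLN or either SSM library of the tdLN (adjusted p up to 0.037). In the tdLN the difference had the opposite sign, 0.70 ± 0.18, and did not pass (adjusted p = 0.0365).

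Il18 had the same order of groups as Il1b at a much lower level. Its CPM were 23.1 and 11.1 in SSMs of the ndLN, 68.1 and 63.3 in SSMs of the tdLN, 35.1 and 26.7 in MSMs of the ndLN, and 41.9 and 47.7 in MSMs of the tdLN. Il18 rose in SSMs of the tdLN by a log2 fold change of 1.98 ± 0.28 (adjusted p = 0.00689), with 1.56 in pool 1 and 2.52 in pool 2. As for Gsdmd, leaving out any 1 library ended the call (adjusted p up to 0.0874). In MSMs the value was 0.56 ± 0.28 (adjusted p = 0.474).

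Il1a had another pattern than its neighbor Il1b. Its CPM were 24.2 and 21.2 in SSMs of the ndLN, 36.1 and 37.1 in SSMs of the tdLN, 18.6 and 22.6 in MSMs of the ndLN and 7.005 and 9.44 in MSMs of the tdLN. The MSM libraries of the tdLN were the lowest of the 8. Il1a was higher in SSMs than in MSMs of the tdLN by a log2 fold change of 2.16 ± 0.22 (adjusted p = 0.000658), whereas the ndLN libraries of the subsets overlapped (0.15 ± 0.21, adjusted p = 0.66). The tdLN call was lost without either SSM library of the tdLN or pool 1 of its MSMs (adjusted p up to 0.0123). Between nodes, the values were 0.69 ± 0.20 in SSMs (adjusted p = 0.0788) and -1.32 ± 0.23 in MSMs (adjusted p = 0.0717).

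The antagonist Il1rn was more abundant in SSMs than in MSMs. Its CPM were 376 and 243 in SSMs of the ndLN, 1137 and 820 in SSMs of the tdLN, 143 and 176 in MSMs of the ndLN and 286 and 211 in MSMs of the tdLN. The tdLN libraries of the SSMs stood far above the other 6. Il1rn was 3.93-fold higher in SSMs than in MSMs of the tdLN (log2 1.97 ± 0.22, adjusted p = 0.000905), and the value in ndLN was 0.90 ± 0.22 (adjusted p = 0.0209). Il1rn also rose in SSMs of the tdLN by a log2 fold change of 1.67 ± 0.22 (adjusted p = 0.00496). The first call was lost without either library of either tdLN group (adjusted p up to 0.0206), and the second without any SSM library or either MSM library of the tdLN (adjusted p up to 0.0845). Over both nodes the value was 1.44 ± 0.26 (adjusted p = 0.00418), and that call was lost without the same 5 libraries as for Casp1 (adjusted p up to 0.0207).

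The 4 calls between nodes in SSMs rested on a spread shared with the MSM libraries. When the 4 SSM libraries were fitted alone, none of the 4 genes was called (adjusted p 0.0297 to 0.0441), nor was any of the 21085 genes tested. In this comparison fewer of all genes were also called on leaving out any single library, so the losses given above were not particular to these genes.

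The balance of agonist and antagonist reads was compared as a ratio within each library, a choice made after the values were seen. Reads of Il1b per read of Il1rn were 5.26 and 4.58 in SSMs of the ndLN, 6.03 and 6.99 in SSMs of the tdLN, 25.2 and 18.2 in MSMs of the ndLN and 13.5 and 18.1 in MSMs of the tdLN. All 4 SSM libraries had a lower ratio than all 4 MSM libraries, in either node. The mean log2 ratio was lower in SSMs by -1.7 (exact permutation test over 8 libraries, two-sided p = 0.0286, the smallest this shuffling allows, and 0.114 after Benjamini-Hochberg adjustment over 8 tests of 4 ratios). The shuffling, here and for the ratios below, kept neither node nor pool. It takes the 8 libraries as independent, although libraries of a pool come from the same mice. Between nodes the mean log2 ratio differed by -0.03 (exact permutation p = 0.914).

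Il18 per read of Il18bp, the secreted protein that binds IL-18, showed a similar order. The ratio was 1.64 and 1.94 in SSMs of the ndLN, 2.51 and 1.82 in SSMs of the tdLN, 4.88 and 3.58 in MSMs of the ndLN, and 2.69 and 3.4 in MSMs of the tdLN. The SSM libraries were again all below the MSM libraries (log2 -0.87, exact permutation p = 0.0286, adjusted 0.114). Reads of Il1b per read of Il1a were 81.7 and 52.5 in the ndLN and 190 and 154 in the tdLN in SSMs, and 194 and 142 in the ndLN and 553 and 404 in the tdLN in MSMs. The nodes did not overlap within either subset, and over both subsets, without regard to subset, the exact permutation p was 0.0857 (adjusted 0.171). Reads of Casp1 per read of Casp4 stayed between 1.46 and 2.32 (SSMs against MSMs, exact permutation p = 0.0571, adjusted 0.152). None of the 4 ratios passed after adjustment.

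**Figure D3:**
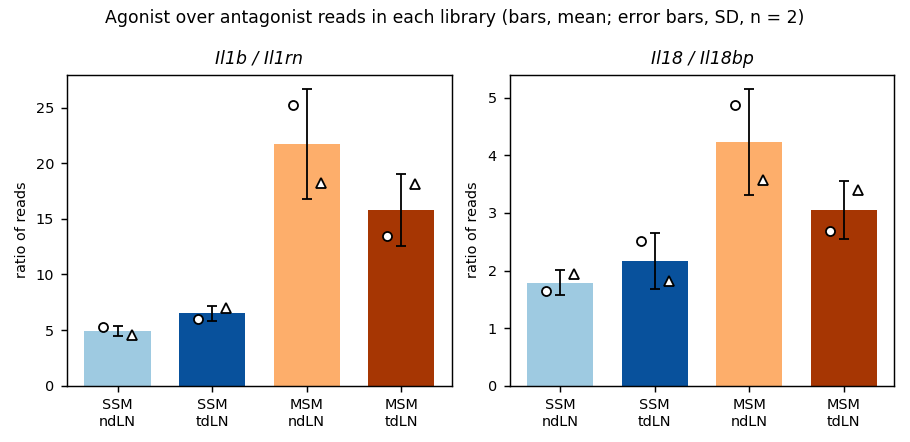
Reads of Il1b per read of Il1rn and of Il18 per read of Il18bp (vertical axes, from 0) in the 4 groups: bars are means of 2 libraries, error bars SDs, circles pool 1 and triangles pool 2. The SSM libraries lie at 4.58 to 6.99 and 1.64 to 2.51, below the MSM libraries at 13.5 to 25.2 and 2.69 to 4.88.

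Whether the node contrast differed between the subsets was tested as an interaction. None of the 10 was called by edgeR (background 0.0379%), 7 of 10 had an unadjusted p under 0.05 (12.3% of all tested genes), and DESeq2 called 3, Il1a, Il1b and Nlrp3 (3.35% of all). At an adjusted p under 0.05 and a mean count over 100, 2 genes passed in edgeR: Il1a (log2 2.01, adjusted p = 0.0355) and Il1b (log2 1.87, adjusted p = 0.026). Both conditions were met by 1.02% of all tested genes, and by 2.15% of genes with a mean count over 100. For Il1b this set 2.06 in SSMs against 0.18 in MSMs, and for Il1a 0.69 in SSMs against -1.32 in MSMs. The interaction was positive for 9 of the 10 genes, with a median of 0.94 on the log2 scale against 0.08 for genes with a mean count over 100. Both tdLN libraries stood above both ndLN libraries in SSMs for all 10 genes, where 67.6% of genes with a mean count over 100 did not overlap, and 9 genes did not overlap in MSMs, where 49.8% did not.

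Over the 8 libraries the genes fell into a pair of sets that varied together. Il1b, Il18 and Gsdmd had Pearson r of 0.965 to 0.977 with each other on the log2(CPM + 1) scale, and Casp1, Casp4 and Il1rn had 0.904 to 0.966. Between the sets r was 0.207 to 0.548. Nlrp3 was closer to the first set (0.67 to 0.784, against 0.221 to 0.566). Pycard lay between them (0.625 to 0.881 with the members of both), Aim2 ran with the first set only (0.643 to 0.719, and -0.438 to -0.166 with the second), and Il1a was close to neither (0.002 to 0.593). These values describe 8 libraries in 4 groups, which share the group differences given above, and carry no test.

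**Figure D4:**
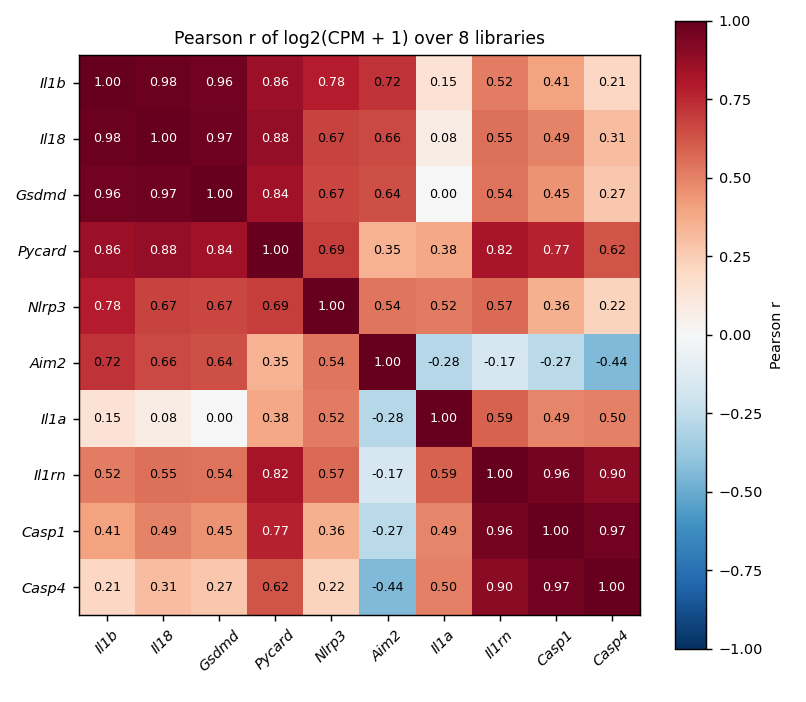
Pearson r of log2(CPM + 1) over the 8 libraries for each pair of the 10 genes (color scale from -1 to 1, values printed). Il1b, Il18 and Gsdmd form one block (0.965 to 0.977) and Il1rn, Casp1 and Casp4 another (0.904 to 0.966).

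Among the 9988 genes with a mean count over 100, the one most like Il1b was Cd68, a lysosomal protein of macrophages (r = 0.995, n = 8), followed by Grn (0.991). Casp1 was most like Gm36161 (0.995) and Gngt2 (0.992), Il1rn most like Rnf149 (0.992) and Map7d1 (0.99), Aim2 most like Ass1 (0.993) and Wipf1 (0.992), and Il18 most like Rab29 and Trafd1 (both 0.988). For Casp4 the closest were S100a6 (0.984) and Retreg3 (0.983), for Gsdmd Stxbp3 and App (both 0.984), and for Pycard H1f0 (0.982) and Pigx (0.979). Nlrp3 (Mmp19, 0.977, and Tm6sf1, 0.962) and Il1a (Tnfrsf12a, 0.959, and Wdr20, 0.944) had the fewest genes with r over 0.95, 4 and 1.

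Reads were then set against Cd68 in the same library, as a description. Cd68 was picked for its high r with Il1b, so a narrow range of their ratio follows from that choice. Il18 and Gsdmd had r of 0.977 and 0.965 with Il1b, so narrower ranges follow for them as well. Il1rn, Casp4 and Il1a had r of 0.515, 0.207 and 0.147 with Il1b, so their ratios are not independent of the choice either. Cd68 was at 211 and 134 CPM in SSMs of the ndLN, 591 and 504 in SSMs of the tdLN, 385 and 326 in MSMs of the ndLN and 375 and 341 in MSMs of the tdLN. Per read of Cd68, Il1b had 9.37 and 8.27, 11.6 and 11.4, 9.36 and 9.85, and 10.3 and 11.2 reads in the same order of groups. The highest library was 6.17 times the lowest for Il1b in CPM but 1.40 times per Cd68 read. For Il18 these ranges were 6.15 and 1.71 times, and for Gsdmd 2.34 and 1.91 times. Il1rn had 1.63 to 1.93 reads per Cd68 read in the 4 SSM libraries and 0.372 to 0.763 in the 4 MSM libraries, so it kept the separation of the subsets. The range of Casp4 widened from 3.68 to 5.82 times and that of Il1a from 5.30 to 8.44 times.

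Transcripts of several cell types moved together with the node contrast in SSMs. The 10 sinus macrophage markers, led by Lyz2, summed to 9136 and 5958 CPM in SSMs of the ndLN and to 22420 and 15340 CPM in the tdLN, against 4763 to 5425 CPM in the MSM libraries. In SSMs of the tdLN 6 of the 10 rose, Siglec1, Csf1r, Cd68, Mertk, Lyz2 and Vcam1, and none fell. Of all tested genes, 1.99% rose and 1.05% fell in this comparison. The 8 monocyte markers summed to 2810 and 1539 CPM in the ndLN and to 5064 and 4843 CPM in the tdLN (1 of 8 rose), and the 10 neutrophil markers to 93.7 and 318 CPM and to 817 and 354 CPM (1 of 10 rose), with Ly6g at 0 in 7 libraries and at 0.628 CPM in the other.

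Mast cell, T cell and innate-like lymphoid transcripts had lower sums in SSMs of the tdLN. Over the SSM libraries of the ndLN and the tdLN, the 12 mast cell and basophil markers summed to 2225 to 3299 and 416 to 868 CPM, the 11 T cell markers to 2308 to 2535 and 1018 to 1170 CPM, and the 12 markers of innate-like lymphoid cells to 1418 to 1770 and 595 to 672 CPM. In the tdLN 2, 3 and 5 markers of these lists fell, respectively, and 1 mast cell or basophil marker rose (1.05% of all tested genes fell and 1.99% rose). The NK cell sums overlapped (3354 and 2651 CPM in the ndLN, 2003 and 2977 CPM in the tdLN, none of 10 called), and the B cell sums were 48.3 and 49.7 CPM in the ndLN and 81.05 and 81.96 CPM in the tdLN (1 of 8 rose). The part of these cell types in the rise of Il1b, Il18, Gsdmd and Il1rn was not tested. The 10 dendritic cell markers summed to 1605 and 2342 CPM in SSMs of the ndLN and 955 and 1337 CPM in the tdLN (1 of 10 rose, none fell). They were led by Ccr7, at 1233 and 1877 CPM and at 601 and 900 CPM. In MSMs of the ndLN Ccr7 was at 1662 and 1644 CPM. The part of these markers was not tested either. In the MSM libraries the dendritic cell markers summed to 3857 to 4242 CPM in the ndLN and 4538 to 4570 CPM in the tdLN.

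The wider pathway was described with 52 further genes, of which 48 could be tested. Against MSMs, SSMs of the ndLN had 17 of them called higher and 4 called lower, and SSMs of the tdLN had 14 higher and none lower. Of all tested genes, 6.01% were called higher and 6.06% lower in the ndLN, and 5.16% higher and 3.52% lower in the tdLN. Of genes with a mean count over 100, 25.5% were called in the ndLN and 18.3% in the tdLN. The median log2 fold changes of the 48 genes were 0.58 and 1.06, against 0.09 and 0.02 over all tested genes. Between tdLN and ndLN in SSMs, 4 rose and 2 fell (median 0.38, against -0.04 over all genes), where 1.99% of all tested genes rose and 1.05% fell. Of genes with a mean count over 100, 6.41% were called in that comparison. None of the 48 was called in MSMs by edgeR (0.0237% of all tested genes). DESeq2 called 5 there (2.39% of all), and 16 had an unadjusted p under 0.05 (11.9% of all). The same shares of all genes stand beside the lists below. The counts of called genes among the 48 depended on single libraries. Those in SSMs between nodes went from 6 to 2 without pool 1 of their ndLN, to 0 without its pool 2 or either of their tdLN libraries, and to 1 without either MSM library of the tdLN. The 21 calls in ndLN became 8 to 13 without any library of the ndLN or either SSM library of the tdLN, and the 14 in tdLN became 3 to 7 without any library of the tdLN.

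Of 16 other sensors and partners, 2 were higher and 2 lower in SSMs of the ndLN, 2 were higher in SSMs of the tdLN, and 1 rose in SSMs of the tdLN. The last was P2rx7, the ATP-gated channel whose opening triggers NLRP3, at 10.96 and 8.19 CPM in SSMs of the ndLN and 47.6 and 33.45 CPM in SSMs of the tdLN (log2 2.08, adjusted p = 0.00225). In the MSM libraries P2rx7 was at 17.0 to 28.2 CPM, between these levels, as was Il1b. Txnip, a thioredoxin-binding protein reported to bind NLRP3, was higher in SSMs in both nodes (log2 1.45, adjusted p = 0.00289, and 1.75, adjusted p = 0.00178). Nlrp1b, a sensor with close copies in the genome whose counts are therefore uncertain, was lower in SSMs of the ndLN, at 2.00 and 1.78 CPM against 11.4 and 13.3 CPM (log2 -2.69, adjusted p = 0.000657).

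Of 5 other effectors of cell death, 3 were higher in SSMs in both nodes and none was called between nodes. The largest difference among those called was that of Panx1, a membrane channel that releases ATP, at 72.6 to 97.5 CPM in the SSM libraries and 16.2 to 23.3 CPM in the MSM libraries (log2 2.36 in ndLN, adjusted p = 0.000247, and 1.93 in tdLN, adjusted p = 0.000829).

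Of 9 receptors and decoys, 5 were higher and 1 lower in SSMs of the ndLN, 3 were higher in SSMs of the tdLN, and 2 fell in SSMs of the tdLN. Il18r1 and Il18rap, the chains of the IL-18 receptor, were at 39.6 to 114 and 104 to 176 CPM in the SSM libraries and at 0.703 to 4.03 and 2.85 to 5.46 CPM in the MSM libraries. In ndLN, Il18rap was higher by a log2 fold change of 5.30 (adjusted p = 2.6e-05), and in tdLN Il18r1 by 5.81 (adjusted p = 8.0e-05). These receptors are known from NK and T cells, whose markers stood high in the same libraries (above), and their part in the result was not tested.

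Il1r2, the decoy receptor that binds IL-1β without signalling, ran the other way in the ndLN. It was at 133 and 86.3 CPM in SSMs against 594 and 920 CPM in MSMs (log2 -2.88, adjusted p = 0.00115), while in the tdLN it was at 475 and 303 CPM in SSMs and 532 and 265 CPM in MSMs, which overlapped. Il1rl2, the receptor of the IL-36 cytokines, fell in SSMs of the tdLN, from 19.75 and 35.4 CPM to 5.11 and 2.96 CPM (log2 -2.73, adjusted p = 0.0095). Of the 6 other ligands of the family, 4 had too few reads to be tested, and neither Il33 nor Il36g was called.

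Of 7 genes of receptor signalling, 2 were higher and 1 lower in SSMs of the ndLN, 2 were higher in SSMs of the tdLN, and 2 rose in SSMs of the tdLN. Myd88, the adaptor of the IL-1 and IL-18 receptors, rose from 117 and 84.7 CPM to 261 and 253 CPM (log2 1.36, adjusted p = 0.00294). In MSMs it was at 112 and 109 CPM in the ndLN and 221 and 212 CPM in the tdLN, which did not overlap but did not pass (log2 0.97, adjusted p = 0.0571). Irak3, an inhibitor of this signalling, was higher in SSMs in both nodes (log2 2.88, adjusted p = 0.000265, and 2.52, adjusted p = 0.000525), and Irak1, a kinase of the complex, was lower in SSMs of the ndLN (log2 -0.93, adjusted p = 0.00364).

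Of 9 genes of NF-κB and its targets, 5 were higher in SSMs of the ndLN and 4 in SSMs of the tdLN, none was lower, and 1 rose in SSMs of the tdLN. Nfkbiz, a nuclear IκB protein induced by IL-1, was at 967 and 968 CPM in SSMs against 198 and 289 CPM in MSMs of the ndLN (log2 2.00, adjusted p = 0.0004). Cxcl2, a neutrophil-attracting chemokine, was higher in SSMs of the tdLN than in MSMs (log2 1.81, adjusted p = 0.000521) and rose in SSMs from 208 and 171 CPM to 497 and 352 CPM (log2 1.16, adjusted p = 0.00805). Most of this list did not rise with Il1b between the nodes, and its median log2 fold change there was -0.13 in SSMs.

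**Figure D5:**
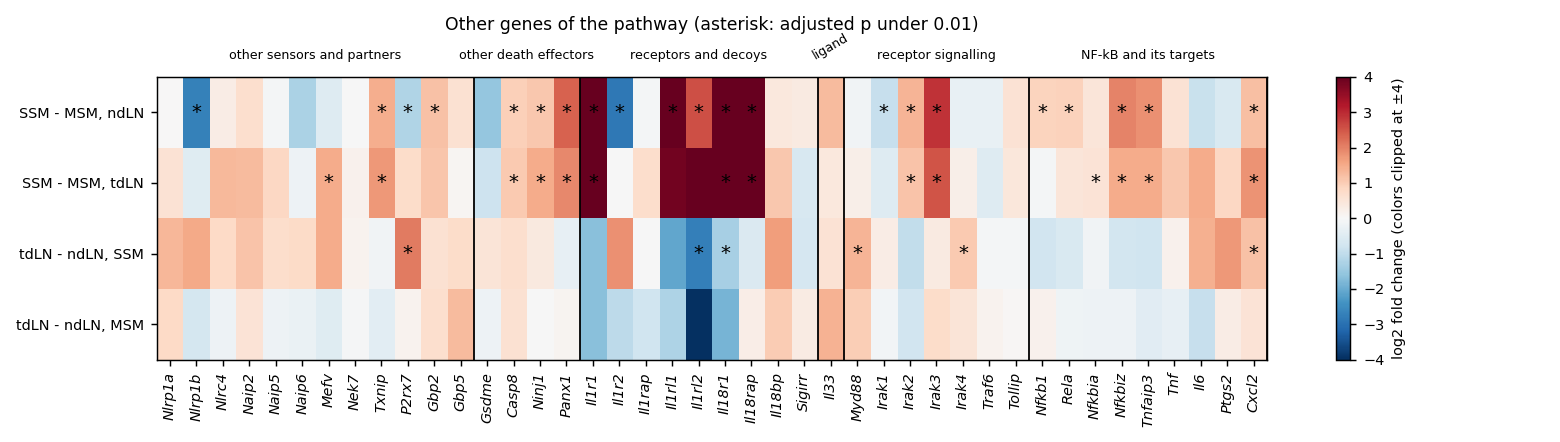
Log2 fold changes (color, clipped at ±4) of 42 further pathway genes with a mean normalized count over 100 in the 4 comparisons, grouped by role. Asterisks mark an adjusted p under 0.01, which most often falls in the comparisons of the subsets and, between nodes, only in SSMs, at P2rx7, Il1rl2, Il18r1, Myd88, Irak4 and Cxcl2.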

How the data were processed

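The authors deposited raw counts of reads per Ensembl gene, 1 column per library and lane. Per the labels and the study's methods, RNA of sorted cells was amplified with SMART-Seq v4, demultiplexed with bcl2fastq 2.20.0.422, trimmed with Trimmomatic 0.36 and aligned to GRCm38 with STAR 2.5.3a, which counts uniquely placed reads; the annotation release and strand column are not given in the sources used here. Amplified reads are not independent molecules.

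The 16 columns were 8 libraries on 2 lanes, which differed by no more than sampling noise (chi-square per degree of freedom 0.955 to 1.015 between lanes and 52.79 to 95.56 between libraries) and were summed. Genes with at least 10 counts, seen in at least 2 columns, were kept (21085), and 2 rows of added sequences (6 and 0 counts) were left out. edgeR 4.0.16 was fitted to all 8 libraries with TMM scaling, group and pool, tested on simulated data first. The mean count of 100 refers to 1 lane and equals 4.43 CPM. SE is the log2 fold change divided by the root of F. Fits over both nodes or both subsets used additive terms. Pool numbers come from the labels, except for 1 SSM library of the tdLN, whose label holds no number and which was taken as pool 1. The paper counts more pools than the 2 numbered in the labels. By its methods each pool gave both subsets from both kinds of node, so pool is in the main fit. Deviations of same-numbered libraries correlated from -0.193 to 0.148 across pairs of groups. The p-values of these fits measure the spread between these pools.

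Symbols and positions are from the GENCODE annotation of GRCm38 and promoters from RefSeq (9 of 10 genes matched). Both strands were searched for NF-kB (GGGA and TTCC with 2 bases between them), ISRE (GAAA and GAAA likewise), GAS (TTCNNNGAA), AP-1, PU.1 (GAGGAAGT), TATA box and C/EBP letters. Members, gene and marker lists, and motifs were chosen with earlier results of these data known. Named pathway genes are those with the largest called rise and fall of each list in each comparison; like genes are the 2 with the highest r. Other lists gave B cell markers at 48.3 to 126 CPM (8 genes) and lymphatic endothelium markers at 32.6 to 81.7 CPM (6 of 7 genes kept). Most of the latter sum was Pecam1, at 23.8 to 74.5 CPM, with each other gene at no more than 5.48 CPM. Alternatives were a fit without pool, DESeq2 1.42.0, its size factors, other filters and thresholds, only the groups compared, lanes as samples, and each library left out.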

Additional observations from a re-analysis of the deposited data

Results flagged for a closer look

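In both pools, 3 genes moved in opposite directions between tdLN and ndLN in SSMs and in MSMs. Their interaction on the log2 scale, the SSM difference minus the MSM difference, was 2.36 for Nlrp3 (adjusted p = 0.0995), 2.01 for Il1a (0.0355) and 0.70 for Aim2 (0.406). In both pools, 4 genes differed in opposite directions between SSMs and MSMs in the 2 nodes, lower in SSMs in the ndLN and higher in SSMs in the tdLN. Their interaction was 2.36 for Nlrp3 (0.0995), 1.87 for Il1b (0.026), 1.41 for Il18 (0.173) and 0.66 for Gsdmd (0.177). None passed an adjusted p of 0.01 (edgeR quasi-likelihood test), and Il1a and Il1b passed 0.05. Opposite signs in 2 pools of 2 mice are therefore reported as values. The share of all genes with the same pattern is not given, so neither count of genes can be set against a background. By DESeq2, Il1a, Il1b and Nlrp3 passed 0.01, and for Aim2, Il18 and Gsdmd the difference between the groups passed neither threshold in edgeR nor 0.01 in DESeq2.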

How the results depend on the processing

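Of 600 alternative fits of the 40 log2 fold changes of the 10 genes within a node or subset, 493 kept direction and side of the threshold, 53 passed it newly, 48 no longer passed it and 6 changed sign. The sign changes arose on leaving out 1 library. They concern Nlrp3 in MSMs, at -0.81 with all libraries, and 4 genes with values from -0.13 to 0.18. Over the left-out fits of the libraries in question, the log2 fold change ran from -0.461 to 0.158 for Pycard in ndLN (positive without pool 2 of either ndLN group, where it was 0.158 and 0.00308), and from -0.0619 (without SSM ndLN pool 1) to 0.347 for Il1a in ndLN. In MSMs it ran from -1.44 to 0.00405 for Nlrp3 and from -0.271 to 0.0925 for Aim2 (both positive without ndLN pool 2), and from -0.0268 (without tdLN pool 2) to 0.37 for Il1b. Of 255 alternative fits of the 17 named pathway values, 59 no longer passed and none changed sign.

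The number of the 10 genes called depended on the setting. In ndLN (2 called), DESeq2 and a filter at 1 CPM in 2 libraries gave 5, an adjusted p of 0.05 gave 6, lanes as samples 8, the groups compared alone 0, and left-out libraries 0 to 2. In tdLN (2), these gave 6, 4, 5, 8, 4 and 0 to 4. Between nodes in SSMs (4), lanes as samples gave 10, the SSM groups alone 0, and left-out libraries 0 to 3. In MSMs (0), DESeq2 gave 1 and lanes 5. The interaction (0) gave 3 by DESeq2, 8 by lanes and 2 at 0.05. Over both nodes (3), lanes gave 5 and left-out libraries 1 to 3. Over both subsets (0), DESeq2 gave 4 and lanes 7. Calls over all tested genes moved as well. Between nodes in SSMs they went from 640 to 4733 with lanes as samples and to 0 with the SSM groups alone. Between subsets, lanes as samples took them from 2545 to 6248 in ndLN and from 1832 to 5409 in tdLN. Between nodes in SSMs, fewer of all genes were also called without any 1 library, so losing a call was not particular to the 10 genes. Lanes are repeat runs of a library and understate its spread, and fewer libraries or groups leave fewer degrees of freedom. For other differences the cause was not tested. Without the replicate block (pool), the counts were 2, 2, 5, 0, 0, 3 and 0 in the order above; Pycard was the gene added in SSMs.

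With 2 pools per group, a gene missing the threshold is not shown to be equal between groups. Depth did not limit the 10 genes, the lowest of which stood at 7.005 CPM, above the 0.0698 CPM of 3 reads.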
